A study of Mus musculus with 4 samples.

Results

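The genes described here are the FoxO transcription factors Foxo1, Foxo3 and Foxo4 and the enzymes of superoxide and peroxide removal Sod1, Sod2, Sod3 and Cat, 7 genes of the 18194 that the arrays name. They were chosen by gene family and known role. Every probe set that the platform annotation pairs with exactly 1 of these symbols was taken, which gave 22 of 45101 probe sets, and the main probe set of a gene is the one with the highest mean log2 signal. In the mouse genome Foxo1 lies on chromosome 3, Foxo3 on 10, Foxo4 on X, Sod1 on 16, Sod2 on 17, Sod3 on 5 and Cat on 2.

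The study profiled sorted bone marrow cells that carry the surface proteins Sca-1 and c-Kit and lack lineage markers (LSK cells), which hold the haematopoietic stem cells and the earliest progenitors. C57BL/6 mice of 2 groups were compared, one reconstituted with necdin null fetal liver cells and one with wild type fetal liver cells, with 2 arrays in each group. All mice of both groups had been irradiated at the sublethal dose of 6.5 Gy, and no unirradiated array was analysed here, so the comparison is between genotypes after irradiation. The necdin null allele, the time from irradiation to cell collection, the ages, the share of host cells left in the marrow and whether an array holds 1 animal or a pool are not given in the sources used here. P-values here cover no more than the spread among 4 arrays, part of which may be technical.

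FoxO proteins are forkhead transcription factors. When growth factor signalling is strong, the kinase AKT phosphorylates them and 14-3-3 proteins hold them in the cytoplasm, and when it is weak or when the cell is under oxidative stress they act in the nucleus on genes of cell cycle arrest, cell death, autophagy and antioxidant defence. Sod2 and Cat are textbook FoxO targets, and in mice the joint loss of Foxo1, Foxo3 and Foxo4 raises reactive oxygen species in haematopoietic stem cells and depletes them. Superoxide dismutases turn superoxide into hydrogen peroxide, Sod1 mainly in the cytosol with copper and zinc, Sod2 in mitochondria with manganese and Sod3 outside the cell, and catalase, the product of Cat, breaks hydrogen peroxide down to water and oxygen in peroxisomes.

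The promoters of the 3 enzyme genes with the brightest signals are shown because Sod2 and Cat are the known FoxO targets among them and Sod1 is the brightest gene of the set. Each sequence runs 5′ to 3′ on the strand of its gene, from 250 bases before to 50 bases after the start site, and comes from RefSeq on build GRCm38.p6, which held a promoter for 5 of the 7 genes. Capitals mark, on either strand, the GC box GGGCGG, the CCAAT box CCAAT, the TATA box TATAAA and the antioxidant response element TGACNNNGC. Sod1 lies on the plus strand (chr16:90220512-90220811), Sod2 on the plus strand (chr17:13007589-13007888) and Cat on the minus strand (chr2:103485104-103485403).
Sod1: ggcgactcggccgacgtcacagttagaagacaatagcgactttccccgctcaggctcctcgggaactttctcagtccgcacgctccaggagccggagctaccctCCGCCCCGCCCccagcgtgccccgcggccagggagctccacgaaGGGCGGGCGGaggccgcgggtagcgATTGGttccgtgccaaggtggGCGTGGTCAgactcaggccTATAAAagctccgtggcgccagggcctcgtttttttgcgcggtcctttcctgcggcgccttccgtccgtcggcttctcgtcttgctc
Sod2: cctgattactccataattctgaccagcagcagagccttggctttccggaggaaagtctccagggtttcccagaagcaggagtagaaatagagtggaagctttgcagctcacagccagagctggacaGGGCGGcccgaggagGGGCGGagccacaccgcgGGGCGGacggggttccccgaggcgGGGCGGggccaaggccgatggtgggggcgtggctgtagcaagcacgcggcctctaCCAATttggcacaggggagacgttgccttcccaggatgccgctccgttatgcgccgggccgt
Cat: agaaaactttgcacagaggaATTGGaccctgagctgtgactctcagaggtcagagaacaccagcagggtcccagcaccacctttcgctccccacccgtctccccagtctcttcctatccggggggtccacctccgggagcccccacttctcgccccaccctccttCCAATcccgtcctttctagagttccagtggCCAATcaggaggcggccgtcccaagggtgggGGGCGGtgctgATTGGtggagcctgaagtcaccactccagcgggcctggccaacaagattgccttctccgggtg

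The 3 promoters differed in their motifs. Sod1 had 4 GC boxes in overlapping pairs, 1 CCAAT box, a TATA box starting 37 bases before the start site and 1 match of the antioxidant response element on the reverse strand, starting 56 bases before it. Sod2 had 4 GC boxes, all on the forward strand between 124 and 67 bases before the start site, and 1 CCAAT box. Cat had 4 CCAAT boxes and 1 GC box. Of 32851 promoters of this length, 35.7% held a GC box, 37.4% a CCAAT box, 13.6% a TATA box and 12.4% the antioxidant response element. Of the FoxO motifs, the shorter core AAACA, held by 50.5% of all promoters, lay in that of Foxo1 alone. The full consensus GTAAACA was found on neither strand of these 3 windows, nor of those of Foxo1 and Foxo3, and was present in 3.65% of all promoters, so these letters do not lie in these windows, which says nothing of sites elsewhere. A match of letters is a description, not a bound site.

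The deposited values are MAS5 signals, the brightness of a probe set on a linear scale, and the median signal of an array lay between 53.7 and 63.2. The targeted gene Ndn had 1.74 and 4.86 on the necdin null arrays, against 504 and 329 on the wild type arrays at probe set 1435383_x_at, so its signal followed the labels on all 4 arrays, and it was lower in necdin null cells at 7 of its 8 probe sets. At its main probe set 1437853_x_at it had 55.4 and 105 on the necdin null arrays, against 253 and 255 on the wild type arrays. Kit, which encodes the c-Kit protein of the sort, had 6049 and 3744 on the necdin null arrays, against 6617 and 3976 on the wild type arrays, and all 13 stem cell and LSK markers on the array were above the filter on low signals. Markers of other cell types were present as well. The 15 neutrophil and granule markers on the array summed to 102991 and 212525 on the necdin null arrays, against 78965 and 148506 on the wild type arrays, so the groups overlapped and the sums were highest on the replicate 2 arrays. Of the 14 neutrophil markers above the filter, 13 were higher in necdin null cells, beside 5824 of all 12680 genes tested. Groups did not overlap for 3 of the 14, all higher, beside 30.5% of all genes (12.8% higher). Of the 14 markers 0 passed, with a median log2 difference of 0.43. That median rested on single arrays: it was 1.12 and -0.015 when the first or second necdin null array was dropped, and 0.016 and 1.29 when the first or second wild type array was. Cd3e, which defines T cells, read at most 37.8 and Itgam, a myeloid integrin of the lineage depletion, at most 44.8 on any array. These 2 were picked, and other genes of their lists were far brighter. In the T and NK list Nkg7 read 3047 to 4045 and Thy1 184 to 329, and in the neutrophil list Ngp read 7295 to 31838. The summed signals of the lists for monocytes, B cells, T and NK cells, erythroid cells and megakaryocytes also overlapped between the groups. Erythroid markers, of interest because red cells are rich in catalase, summed to 21989.5 and 25674.9 on the necdin null arrays, against 25473.4 and 19844.4 on the wild type arrays. Most of this sum was Car2, with 17220 and 19320 on the necdin null arrays, against 19854 and 14795 on the wild type arrays. The erythroid genes did not share 1 profile. Alas2, Slc4a1 and Tspo2 had their highest signals on wild type replicate 2, at 208, 722 and 160. Klf1, Epor, Ermap and Rhag, like Car2, had their lowest there, at 696, 122, 229 and 107. Necdin null replicate 2 had the highest ratio of 3′ to 5′ Gapdh signal, a sign of RNA quality. This ratio was 10.96 and 15.8 on the necdin null arrays, against 9.96 and 11.7 on the wild type arrays. In sorted cells measured in bulk, fewer cells of a type and less RNA per cell cannot be told apart.

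In irradiated LSK cells the enzymes gave the brightest signals of the set, with Sod1 first, then Cat and Sod2, followed by the FoxO factors in the order Foxo3, Foxo1 and Foxo4, and Sod3 last. Over the 4 arrays Sod1 lay between 24191 and 34958 with a median of 24993, Cat between 6335 and 7287 with a median of 6822, and Sod2 between 4738 and 5308 with a median of 5104. Foxo3 lay between 2385 and 3662 (median 2764), Foxo1 between 663 and 1087 (median 879), Foxo4 between 103 and 201 (median 173), and Sod3 between 6.28 and 9.08 (median 7.68). The ranges of neighbours did not overlap for any of the 6 neighbouring pairs in this order. The closest pair was Cat and Sod2, with Cat 1.20 to 1.43 times as bright as Sod2 on the same array. Foxo3 was 2.19 to 4.54 times as bright as Foxo1, and Foxo1 4.05 to 7.82 times as bright as Foxo4. The brightness of a probe set depends on its probes as well as on the amount of RNA, so this is an order of signals and not of transcript numbers. Sod1 was above 99.5% of all named genes by mean log2 signal, Cat above 95.8%, Sod2 above 94.4%, Foxo3 above 89.7%, Foxo1 above 73.3%, Foxo4 above 50.7% and Sod3 above 8.997%. Sod3 was below the filter on low signals, which was set at the 40th percentile of all probe sets, a signal of 30.3, and its transcript was not measurable above that level here.

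**Figure D1:**
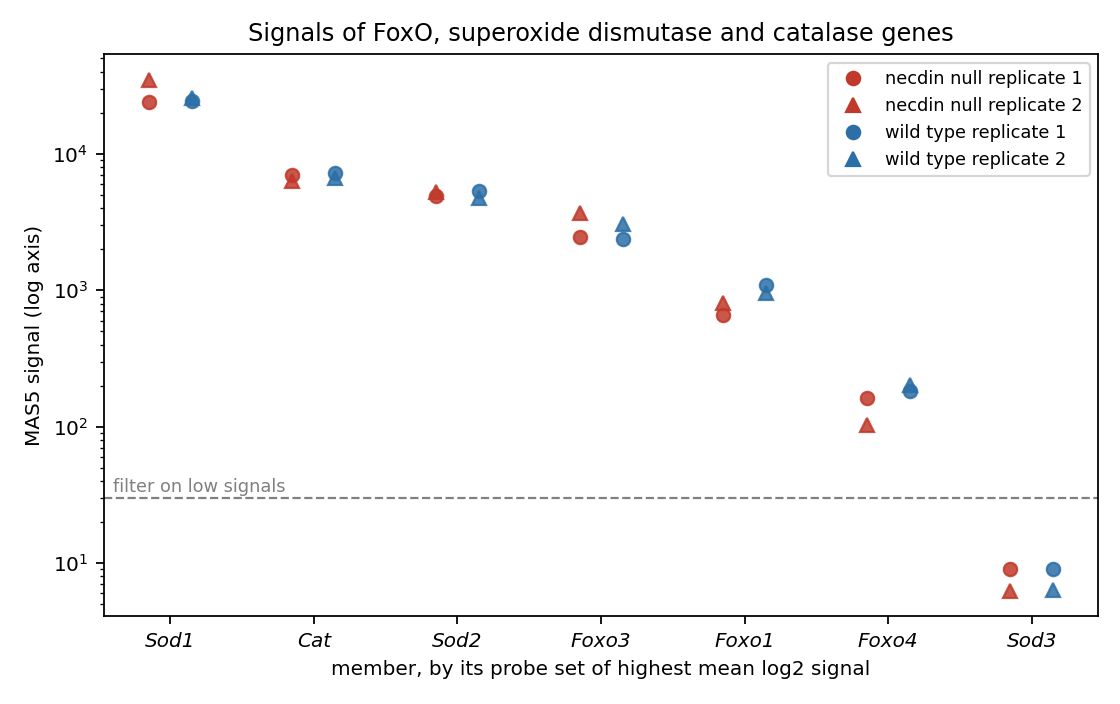
MAS5 signals (vertical log axis) of the main probe set of each gene on the 2 necdin null arrays (red, left) and the 2 wild type arrays (blue, right), circles for replicate 1 and triangles for replicate 2. Sod1 lies between 24191 and 34958, Foxo1 is lower on both necdin null arrays (663 and 807, against 1087 and 951 in wild type), and Sod3 lies below the filter at 30.3 (dashed line).

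Between genotypes, 6 of the 7 genes could be tested, and none passed. With limma, 0 of 12680 genes passed the threshold of an adjusted p of 0.05 (0%), and 383 (3.02%) had an unadjusted p under 0.05, among them none of the 6. Their adjusted p was 0.999 each. In necdin null cells 3 of the 6, Foxo3, Sod1 and Sod2, were higher and 3, Foxo1, Foxo4 and Cat, lower, with Sod2 turning to -0.056 when each array was centred on its median. Their median log2 difference was -0.015, and that of all genes tested was -0.031. Differences are necdin null minus wild type on the scale log2(signal + 3.80), which understates the change of low genes. Groups that did not overlap were found for 2 of the 6, Foxo1 and Foxo4, both lower, against 30.5% of all genes tested (12.8% higher and 17.7% lower). Taken by single probe set, 16 of the 22 were above the filter, 6 of them higher and 10 lower in necdin null cells. The groups did not overlap for 7 of the 16, against 31.4% of the 27061 probe sets tested. These were 1 higher and 6 lower ones, against 15.4% and 16% of all, and 3 of the 6 lower ones belong to Foxo1. Of all 27061 probe sets 0 passed (0%), so none of the 16 did, and 1 of them, a probe set of Sod2, had an unadjusted p under 0.05, against 3.48% of all probe sets.

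Foxo1, which in lymphoid cells drives genes such as Il7r, was lower in necdin null cells at all 3 of its tested probe sets, none of which passed. Its main probe set 1416983_s_at gave 663 and 807 on the necdin null arrays, against 1087 and 951 on the wild type arrays (735 ± 102 and 1019 ± 96.0, SD, n = 2 each). Both necdin null arrays lay below both wild type arrays, with a log2 difference of -0.47 (standard error 0.23, 95% interval -0.996 to 0.050, limma unadjusted p = 0.071, adjusted p = 0.999). Taken by number, the 2 arrays of replicate 1 differed by -0.71 and those of replicate 2 by -0.24. Probe set 1416981_at gave 194 and 150.0 on the necdin null arrays, against 269.7 and 319 on the wild type arrays, or -0.77 on the log2 scale (standard error 0.36). Probe set 1416982_at gave 232.1 and 149.6 on the necdin null arrays, against 233.4 and 290.1 on the wild type arrays, so that the groups were barely apart, and differed by -0.47 (standard error 0.39). The 3 probe sets read the same gene on the same arrays and are not independent. The main probe set was lowest on necdin null replicate 1. Probe sets 1416981_at and 1416982_at were lowest on necdin null replicate 2, the array with the highest 3′ to 5′ Gapdh ratio, a link that was not tested. The fourth, 1456529_at, was below the filter, with 8.30 and 41.1 on the necdin null arrays, against 24.4 and 3.14 on the wild type arrays.

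Foxo3, the FoxO factor most closely tied to the upkeep of mouse haematopoietic stem cells, was the brightest of the 3. Its main probe set 1434831_a_at gave 2459 and 3662 on the necdin null arrays, against 2385 and 3069 on the wild type arrays, so the groups overlapped, with a log2 difference of 0.15 and a 95% interval of -0.40 to 0.70. Both replicate 2 arrays were brighter than both replicate 1 arrays, and over the 4 arrays Foxo3 had the same order as the summed neutrophil markers, highest on necdin null replicate 2 and lowest on wild type replicate 1. The part of those cells in this signal was not tested. Probe set 1434832_at went the other way, with 830.1 and 1156 on the necdin null arrays, against 1245 and 1221 on the wild type arrays, groups that did not overlap (log2 difference -0.33, standard error 0.24). The third, 1450236_at, had signals of at most 21.5 and was below the filter. The direction of Foxo3 thus depended on the probe set, and at the main probe set it also turned to -0.14 without necdin null replicate 2 and to -0.032 without wild type replicate 1.

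Foxo4, the X-linked member of the family, had the lowest FoxO signal. Its main probe set 1456753_at gave 164 and 103 on the necdin null arrays, against 182 and 201 on the wild type arrays. Both necdin null arrays lay below both wild type arrays, with a log2 difference of -0.54 (standard error 0.42, 95% interval -1.51 to 0.42). Its size depended on both necdin null arrays, since the difference was -0.22 without replicate 2, the lowest array, and -0.86 without replicate 1. Necdin null replicate 2 also had the highest 3′ to 5′ Gapdh ratio, and a link with the Foxo4 signal was not tested. The second probe set, 1422149_at, was below the filter with 7.96 and 19.7 on the necdin null arrays, against 27.7 and 36.6 on the wild type arrays. Xist, the RNA that silences 1 X chromosome in female cells, read 4841 and 76.8 on the necdin null arrays, against 9930.1 and 7182 on the wild type arrays, so its lowest array was also that of Foxo4. The Y-linked Eif2s3y read 2273 and 2987 on the necdin null arrays, against 32.6 and 1974 on the wild type arrays, and Kdm5d 355 and 476 on the necdin null arrays, against 1.93 and 356 on the wild type arrays. Xist and Y-linked signals thus stood together on necdin null replicate 1 and wild type replicate 2, and the part of donor or host sex in the Foxo4 signal was not tested. The 412 X-linked genes above the filter had a median log2 difference of 0.017, with 220 higher and 192 lower, and on necdin null replicate 2 their median deviation from the 4-array mean was -0.029.

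Sod1 encodes the cytosolic dismutase. Its main probe set 1459976_s_at gave 24191 and 34958 on the necdin null arrays, against 24331 and 25655 on the wild type arrays, so that a single array, necdin null replicate 2, stood above the other 3, and the groups overlapped. The log2 difference was 0.22 with a 95% interval of -0.36 to 0.80. It was 0.0098 after quantile normalization, 0.065 after cyclic loess and -0.047 without that array, which also had the highest 3′ to 5′ Gapdh ratio, a link that was not tested. Probe set 1451124_at was likewise highest there, with 15164 and 21260.1 on the necdin null arrays, against 17909 and 13988 on the wild type arrays. The dimmer 1435304_at gave 1055 and 1147 on the necdin null arrays, against 1029.8 and 1500.5 on the wild type arrays (log2 difference -0.18), and 1440222_at gave 207 and 161 on the necdin null arrays, against 68.3 and 170.4 on the wild type arrays (0.74, standard error 0.53). All 4 of these probe sets had overlapping groups. The fifth, 1447761_x_at, was below the filter, with 11.9 and 27.1 on the necdin null arrays, against 3.12 and 9.95 on the wild type arrays.

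Sod2, the mitochondrial dismutase, had probe sets that differed in direction. Its main probe set 1448610_a_at had close to equal signals, 4921 and 5287 on the necdin null arrays, against 5308 and 4738 on the wild type arrays, a log2 difference of 0.024 with a 95% interval of -0.39 to 0.44. Probe set 1454976_at was lower in both necdin null arrays, with 1322 and 1430.3 on the necdin null arrays, against 1927 and 2087 on the wild type arrays (1376 ± 76.8 and 2007 ± 113, SD, n = 2 each). Its log2 difference of -0.54 was the same for either replicate number, with a standard error of 0.19 and a 95% interval of -0.99 to -0.093 (limma unadjusted p = 0.024, adjusted p = 0.996 over all probe sets). Probe set 1417193_at was higher in both necdin null arrays, with 3605 and 3627 on the necdin null arrays, against 3547 and 2688 on the wild type arrays, or 0.23 on the log2 scale (standard error 0.21). The dim 1417194_at, near the filter, gave 29.6 and 39.7 on the necdin null arrays, against 44.8 and 35.6 on the wild type arrays. Which part of the transcript each probe set reads is not known from the sources used here.

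Sod3, the extracellular dismutase, gave 9.01 and 6.28 on the necdin null arrays, against 9.08 and 6.36 on the wild type arrays at 1417633_at, and 3.55 and 2.90 on the necdin null arrays, against 4.35 and 5.85 on the wild type arrays at 1417634_at. Both probe sets were below the filter, so no test was made.

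Cat, the gene of catalase, varied little over the 4 arrays. Its main probe set 1416429_a_at gave 7040.3 and 6335 on the necdin null arrays, against 7287 and 6604 on the wild type arrays (6688 ± 499 and 6946 ± 483, SD, n = 2 each), with a log2 difference of -0.055 and a 95% interval of -0.48 to 0.37. The 4 arrays of Cat spanned 0.20 on the log2 scale and those of Sod2 0.16, against 0.53 for Sod1, 0.62 for Foxo3, 0.71 for Foxo1 and 0.93 for Foxo4. Probe set 1416430_at gave 3103 and 2416 on the necdin null arrays, against 3689 and 3051 on the wild type arrays, with overlapping groups and a log2 difference of -0.29 (standard error 0.21). In both genotypes and at both probe sets the replicate 2 array was dimmer than the replicate 1 array.

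**Figure D2:**
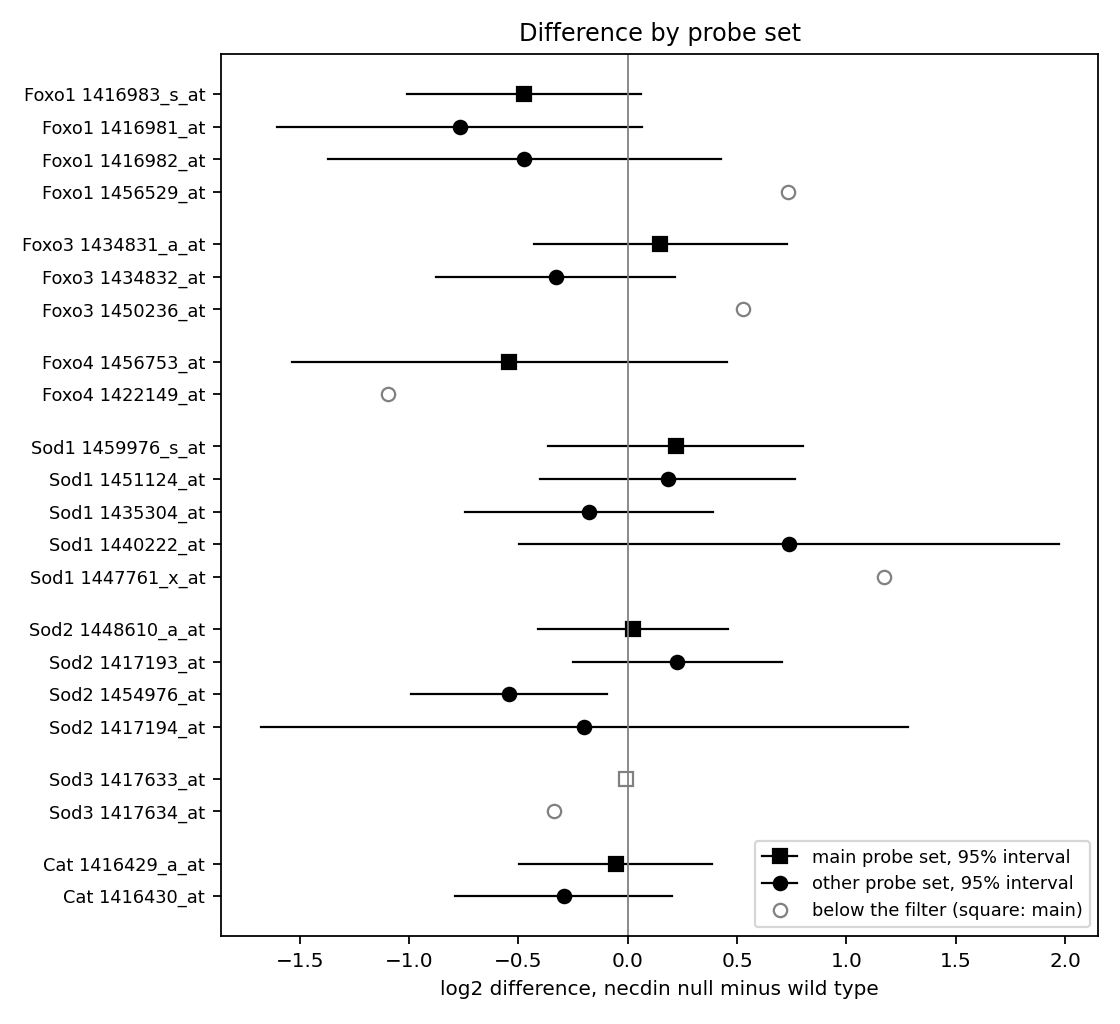
Log2 difference (horizontal axis, necdin null minus wild type) of each of the 22 probe sets, squares for main probe sets and circles for the others, with the 95% interval from limma for the 16 above the filter; open grey symbols are below it and were not tested. The 3 tested Foxo1 probe sets lie between -0.77 and -0.47, the 4 of Sod2 on both sides of 0, and 1454976_at of Sod2 has the only interval that does not reach 0.

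Ratios of signals on the same array do not depend on a scale factor common to all signals of an array. They can still carry a difference between arrays that varies with brightness. The brightest 1% of probe sets held 28.9% and 37.4% of the total signal on the necdin null arrays, against 29.4% and 30.6% on the wild type arrays. The part of such a difference in the ratios was not tested. The ratio of Foxo3 to Foxo1 was 3.71 and 4.54 on the necdin null arrays, against 2.19 and 3.23 on the wild type arrays, higher in both necdin null arrays by 0.62 on the log2 scale. Of the 15 pairs that can be formed from the 6 genes, 7 had groups that did not overlap, against 30.4% of all pairs of genes tested. These were Foxo1 against Foxo3 and both Foxo1 and Foxo4 against each of Sod1, Sod2 and Cat, the ratio being lower in necdin null cells by 0.42 to 0.76 on the log2 scale with Foxo1 or Foxo4 on top. They repeat 2 genes and are not independent. The ratio of Foxo1 to Foxo4 had overlapping groups (log2 difference 0.069), as had the 3 ratios among Sod1, Sod2 and Cat (0.079 to 0.27).

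Ratios of probe sets of the same gene also separated the genotypes in places. For Foxo3, 1434831_a_at over 1434832_at was 2.96 and 3.17 on the necdin null arrays, against 1.92 and 2.51 on the wild type arrays. For Sod2, 1448610_a_at over 1454976_at was 3.72 and 3.70 on the necdin null arrays, against 2.75 and 2.27 on the wild type arrays, and 1417193_at over 1454976_at was 2.73 and 2.54 on the necdin null arrays, against 1.84 and 1.29 on the wild type arrays. For Cat, 1416429_a_at over 1416430_at was 2.27 and 2.62 on the necdin null arrays, against 1.98 and 2.16 on the wild type arrays. Among the 17 pairs of tested probe sets within Foxo1, Foxo3, Sod1, Sod2 and Cat, 10 had groups that did not overlap, against 31.2% of the 16572 such pairs over all genes, and all 6 pairs of Sod2 were among the 10. Part of these 6 use the dim 1417194_at, whose signals of 29.6 to 44.8 lie near the filter of 30.3. Pairs were compared after adding 3.80 to each signal, which matters at such low signals. For 1454976_at over 1417194_at the groups overlapped in the plain signals. The pairs share probe sets, and 2 against 2 arrays allow no exact permutation p below 0.333, so no test was made of these ratios, which were formed after the values of the probe sets had been seen.

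**Figure D3:**
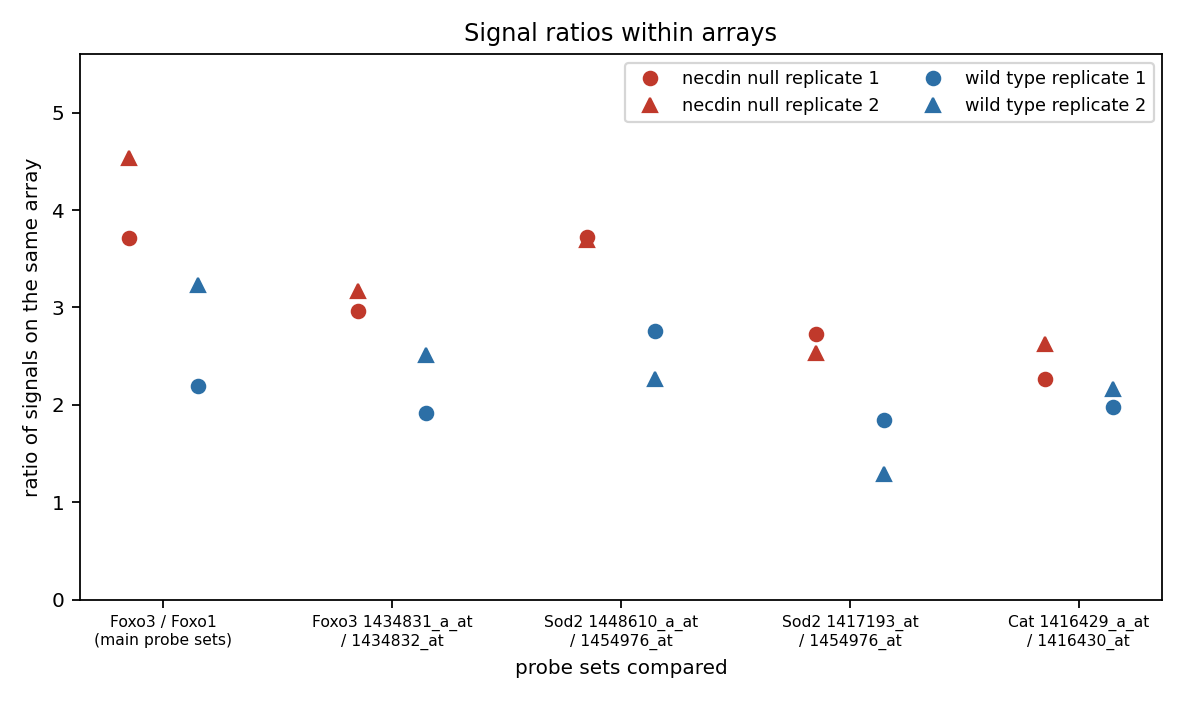
Ratio of 2 signals on the same array (vertical axis, linear, from 0) for Foxo3 over Foxo1 and for pairs of probe sets of Foxo3, Sod2 and Cat, necdin null arrays in red at the left and wild type arrays in blue at the right, circles for replicate 1 and triangles for replicate 2. In each of the 5 ratios shown, which were picked because they are apart, both necdin null arrays lie above both wild type arrays, as for Foxo3 over Foxo1 with 3.71 and 4.54 on necdin null against 2.19 and 3.23 on wild type arrays.

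Genes that act on FoxO proteins were described as a list of kinases, acetylases, sirtuin deacetylases, a methyltransferase, ubiquitin enzymes and 14-3-3 proteins, of which 28 of 32 were measured. In necdin null cells 15 of the 28 were higher and 13 lower, 0 passed, and their median log2 difference was 0.012 (-0.069 with each array centred on its median, where all genes had -0.11). Groups did not overlap for 7 of the 28 (4 higher and 3 lower), a share no larger than the 30.5% of all genes. Ikbkb, a kinase of the NF-kappaB pathway that can phosphorylate Foxo3, had 1690.1 and 1595 on the necdin null arrays, against 1082 and 1056 on the wild type arrays (log2 difference 0.62, standard error 0.20, 2 of 3 probe sets higher). Prmt1, an arginine methyltransferase that modifies Foxo1, had 3375 and 1501 on the necdin null arrays, against 4562 and 4865 on the wild type arrays (-1.06, standard error 0.33), with the lowest signal on necdin null replicate 2. Crebbp, an acetyltransferase and FoxO coactivator, had 1313 and 1696 on the necdin null arrays, against 2307 and 2216 on the wild type arrays (-0.60, standard error 0.20), lower at all 3 of its probe sets. The other values by the naming rule were those of the 14-3-3 gene Ywhab (0.36), the stress kinase gene Stk4 (0.13) and the cell cycle kinase gene Cdk2 (-0.53). None of these 6 passed (limma adjusted p = 0.999 each).

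FoxO target genes other than the members were counted from a list of 41, of which 32 were above the filter. Of these, 15 were higher and 17 lower, 0 passed, and the median was -0.075. Groups did not overlap for 8 of the 32 (2 higher and 6 lower), beside 30.5% of all genes (12.8% higher and 17.7% lower), so the list was near the background. Gabarapl1, an autophagy gene, had 2199.7 and 1872 on the necdin null arrays, against 3295 and 2435 on the wild type arrays (log2 difference -0.48, standard error 0.21, both probe sets lower). Insr, the insulin receptor gene, had 600.1 and 651 on the necdin null arrays, against 876 and 789 on the wild type arrays (-0.41, standard error 0.23). Ppargc1a, a coactivator of mitochondrial genes, had 109 and 71.2 on the necdin null arrays, against 178 and 178 on the wild type arrays (-0.98, standard error 0.45, 3 of 4 probe sets lower). On the other side stood the cyclin gene Ccnd2, with 10075 and 11478 on the necdin null arrays, against 8897 and 9703 on the wild type arrays (0.21, 6 of 7 probe sets higher), and the ubiquitin ligase gene Fbxo32 (0.26). The median of this list was 0.0074 when all probe sets of a gene were averaged, so its sign depended on the choice of probe set.

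Other enzymes of peroxide and thiol defence, which remove the hydrogen peroxide that superoxide dismutases make or repair oxidised thiols, were divided evenly. Of 28 genes measured from a list of 34, 14 were higher and 14 lower, 0 passed, and the median was -0.011. Groups did not overlap for 8 of the 28 (4 in each direction), beside 30.5% of all genes. Gclm, which encodes a subunit of the first enzyme of glutathione synthesis, had 2199 and 1949 on the necdin null arrays, against 1029 and 1029 on the wild type arrays (log2 difference 1.01, standard error 0.20, both probe sets higher). Gss, the second enzyme of that pathway, had 542 and 532 on the necdin null arrays, against 769 and 909.5 on the wild type arrays (-0.64, standard error 0.24), lower at both of its probe sets. Gsr, which regenerates glutathione, had 449 and 565 on the necdin null arrays, against 773 and 626 on the wild type arrays (-0.46, standard error 0.27). Gpx1, a peroxidase that uses glutathione, had 21071 and 30047 on the necdin null arrays, against 16890.0 and 19965 on the wild type arrays (0.45, standard error 0.25), with its highest signal on the same array as Sod1. Nfe2l2, the factor that binds the antioxidant response element, had 0.26, and the glutaredoxin gene Glrx3 had -0.999 at low signals of 164 and 64.7 on the necdin null arrays, against 236 and 187 on the wild type arrays.

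The sources of superoxide that were listed, mainly subunits of the NADPH oxidase of phagocytes, were in part brighter by replicate number than by genotype. Of a list of 17 genes, 9 were above the filter, of which 7 were higher and 2 lower, 0 passed, and the median was 0.082. Groups did not overlap for 2 higher and 1 lower of the 9, beside 30.5% of all genes (12.8% higher and 17.7% lower). Ncf1, a cytosolic subunit, had 1410.4 and 2794.0 on the necdin null arrays, against 1377 and 2140.3 on the wild type arrays, and Cybb, the catalytic subunit, had 661 and 1175 on the necdin null arrays, against 404 and 1651 on the wild type arrays. Both were picked after their values were seen, and in both the replicate 2 arrays were the brighter ones, as for the summed neutrophil markers; the part of neutrophils in these signals was not tested. Noxo1, an organiser of a non-phagocyte oxidase, had 179 and 207 on the necdin null arrays, against 29.2 and 124 on the wild type arrays (log2 difference 1.59, standard error 0.65, 1 probe set tested). The size of this difference rested largely on wild type replicate 1, whose 29.2 was below the filter of 30.3. P4hb, a protein disulfide isomerase, had 0.24 and the small GTPase gene Rac2 -0.16 (1 of 2 probe sets lower), both with groups apart.

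**Figure D4:**
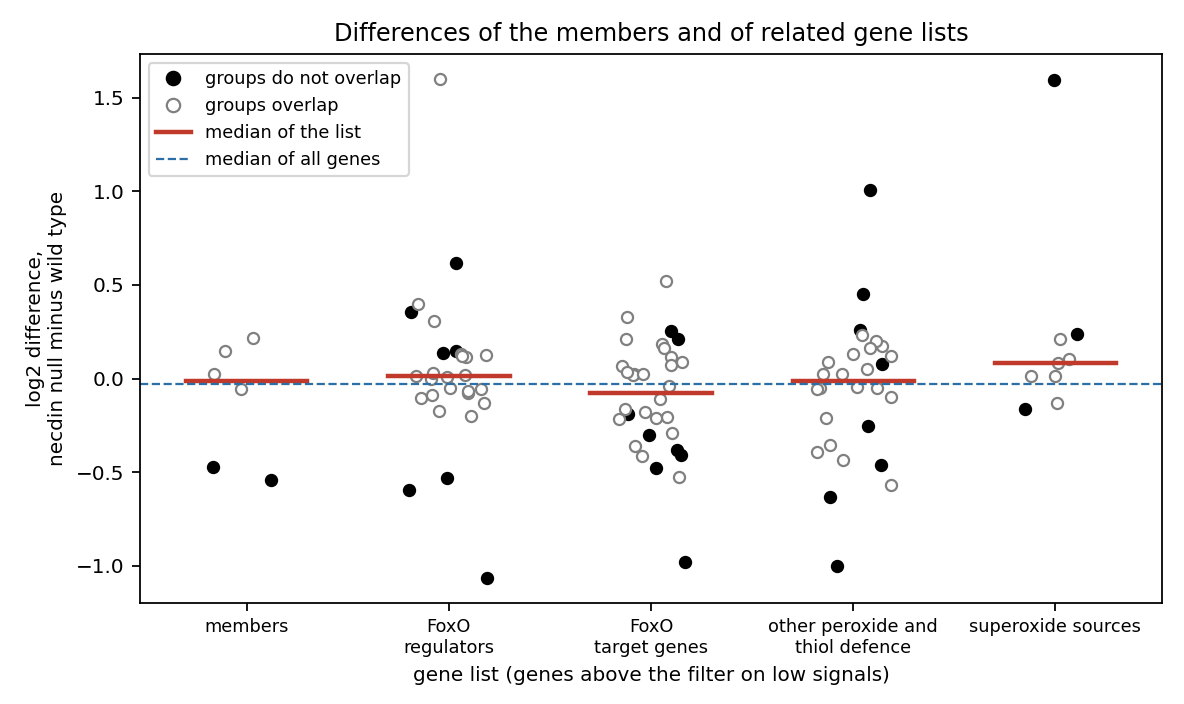
Log2 differences (vertical axis, necdin null minus wild type) of the 6 tested members and of the genes above the filter in 4 related lists, filled where the groups do not overlap and open where they do, with the list's median as a red bar and the median of all genes, -0.031, as a dashed line. The medians lie between -0.075 and 0.082.

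Among the FoxO factors Foxo4 had the largest spread over the 4 arrays and among the enzymes Sod1, and the genes whose centred log2 profiles lay nearest to theirs were looked up among all genes tested. For Foxo4 these were Slc38a9, Myo15 and Zc2hc1a, at root-mean-square distances of 0.0087, 0.013 and 0.019 over the 4 arrays. For Sod1 they were Rpl11, Snrpb and Pttg1, at 0.0093, 0.0096 and 0.0098, each brightest on necdin null replicate 2, as with 15033.5 and 22073 on the necdin null arrays, against 15276 and 16194 on the wild type arrays for Rpl11. With 4 arrays many genes come this close: 451 genes lay within 0.1 of Sod1 and 100 within 0.1 of Foxo4.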

How the data were processed

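Each of the 4 arrays was deposited as MAS5 intensity values on a linear scale; MAS5 is named in the submitters' processing notes, without a version or genome build in the sources used here. The trimmed mean was 500.004 on each array. Only the 34958 of 45101 probe sets with exactly 1 gene symbol in the platform annotation were named. Names ending in _a_at, _s_at or _x_at mark probes that can match several transcripts.

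Signals were taken to log2 after adding 3.80, the 10th percentile of all values, with no rescaling. The main probe set stood for its gene. A filter at the 40th percentile of probe sets (5.09 on this scale) left 12680 of 18194 genes, and 27061 probe sets in a fit of single probe sets. Genotypes were compared across all genes with limma 3.58.1 in R 4.3.3 (lmFit, eBayes with an intensity trend), two-sidedly, with Benjamini-Hochberg adjustment and a threshold of 0.05. The procedure was tried on simulated data with independent noise for each gene and array. Shifts that many genes share on an array were not simulated, so that trial does not cover them. Precision is limited by the number of arrays.

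Members and lists were chosen with earlier results of these data known, so lists have counts and medians but no test. Prdx3, Prdx5 and Txnip are in more than 1 list, and the regulators hold Pdk1, a pyruvate dehydrogenase kinase. Named from each related list were genes past the threshold or else, per direction, up to 3 genes of smallest p whose groups did not overlap. Alternatives varied the pseudocount, the filter, the normalization, the variance trend and the probe sets used, fitted a replicate block, or dropped 1 array.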

Additional observations from a re-analysis of the deposited data

How the results depend on the processing

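No member passed under any of the 15 alternatives. Foxo1 and Foxo4 were lower in necdin null cells under all 15, between -0.77 and -0.33 and between -0.86 and -0.22. Most of these alternatives could not have turned the sign. The filter, the variance trend and the block leave a difference as it is. With groups that do not overlap, another pseudocount or a dropped array cannot reverse it. Foxo4 had only 1 tested probe set, so the choice of probe set left its difference unchanged. The order of member signals and its 6 separate neighbours held under every alternative tried for it, but other filters and probe sets were not tried. Of those tried, only the normalizations could have changed it. Another pseudocount, the variance trend, the block or a dropped array cannot make ranges overlap that are already separate. At probe sets without the suffixes _s_at, _x_at and _a_at the order changed. Sod2 at 1417193_at (2688 to 3627, mean log2 11.71) then passed and overlapped Cat at 1416430_at (2416 to 3689, mean log2 11.57). Foxo1 at 1416981_at (150.0 to 319) overlapped Foxo4 (103 to 201). The order thus depended on the probe set.

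Other signs moved. Foxo3 was -0.091 with all probe sets of a gene averaged and -0.33 without _s_at, _x_at and _a_at probe sets (probe set 1434832_at), and ranged from -0.14 to 0.44 when leaving out 1 array. Sod1 was 0.0098 with quantile normalization, 0.065 with cyclic loess, -0.18 at 1435304_at and -0.047 to 0.48 when leaving out 1 array. Sod2 was -0.056 with median centring, -0.0061 with quantile normalization, -0.0086 with cyclic loess, -0.12 with probe sets averaged, -0.20 at 1417194_at, -0.54 at 1454976_at and -0.057 to 0.11 when leaving out 1 array. Cat was -0.14 with median centring, -0.17 with probe sets averaged, -0.29 without _s_at, _x_at and _a_at probe sets and -0.13 to 0.021 when leaving out 1 array. The median of the members was -0.10 with median centring, which put all genes at -0.11, -0.15 with probe sets averaged, -0.31 without _s_at, _x_at and _a_at probe sets and -0.092 to -0.0082 when leaving out 1 array.

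With the replicate number as a block 3 genes were called (Ddit4, Gas2l3 and Tcl1b3), none of them a member, and 675 had an unadjusted p under 0.05. Same-numbered arrays shared little of their departure from the mean of their group (r = 0.11 across genes, which are not independent), and no label ties them. Some signals still went with the number. In both genotypes the summed neutrophil markers and Foxo3 were higher, and Cat lower, on the replicate 2 array. The summed erythroid markers did not go with it. Whether same-numbered arrays share a batch or a mix of cells was not tested. The adjusted p of Foxo1 under the replicate block was 0.898. Leaving out 1 array gave 3 and 0 called genes when the first or second necdin null array was dropped, and 2 and 4 when the first or second wild type array was, none of them a member, with a group's single array taken to vary as much as the other group. The median of FoxO regulators was -0.069 with median centring and -0.061 to 0.10 when leaving out 1 array. That of FoxO targets was -0.18 without the filter, -0.16 with median centring, 0.0074 with probe sets averaged and -0.13 to -0.01 when leaving out 1 array. When leaving out 1 array, that of the other peroxide and thiol enzymes was -0.12 to 0.059 and that of superoxide sources -0.19 to 0.32. The causes were not tested.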
